A study of Mus musculus with 12 samples.

Results

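To follow the glucocorticoid arm of the adipogenic cocktail, 9 genes known to be switched on by glucocorticoids were read in adipocyte cultures of 3 PPARγ genotypes. They are Fkbp5, Tsc22d3, Zbtb16, Sgk1, Dusp1, Klf9, Mt1, Mt2 and Angptl4, chosen by gene symbol, and they are 9 of the 55573 genes in the count table. Each of the 9 passed the filter on low counts, which left 15117 genes for the tests.

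The cultures came from the stromal vascular fraction (SVF), which is the cell pellet left when the floating fat cells of digested fat are taken off, of mouse subcutaneous fat. Donors were C57BL/6 mice with wild-type PPARγ (WT), with the T166A change (written TA), which puts alanine in place of a threonine that can be phosphorylated, or with the T166D change (written TD), which puts there an aspartate with a charge like that of a phosphate. The knock-in alleles were made by CRISPR-Cas9 and act in every cell of the body, the mutant mice were homozygous, and the WT mice were littermates from heterozygous crosses. The labels give neither the age of the donors nor whether the 4 libraries of a genotype came from separate mice or cultures, so the p-values measure the spread between these libraries, which may be technical. All 12 cultures had the same induction medium for 4 days, with 10% fetal bovine serum, 850 nM insulin and 1 nM triiodothyronine. It also held 0.5 mM IBMX (an inhibitor of phosphodiesterases, which break down cyclic AMP), 125 nM indomethacin and dexamethasone, a synthetic glucocorticoid. The labels give the dexamethasone as 5 mM and the methods give it in micromolar. From then on the cells stayed in medium with 10% serum, insulin and triiodothyronine, without added dexamethasone or IBMX, until harvest on day 8. No library without dexamethasone is in the series, so the values below compare levels between genotypes and do not measure induction.

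Glucocorticoids enter the cell and bind the glucocorticoid receptor (Nr3c1), which is held in the cytoplasm by heat shock proteins and their partners. The bound receptor moves to the nucleus and sits on glucocorticoid response elements, pairs of inverted half-sites, to raise or lower nearby genes. In fat cell precursors the same signal helps to start differentiation, together with cyclic AMP and insulin, and PPARγ then runs the later program.

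Depth was 18823619 to 20324286 counts for the WT libraries, 16950175 to 18182526 for TA and 16553324 to 18357864 for TD. The mitochondrial genome gave 5.39% ± 0.401 (SD, n = 4) of all reads counted for WT, against 3.81% ± 0.811 for TA and 3.20% ± 0.349 for TD. The label adipocyte held in each culture, with 10 adipocyte markers summing to between 14176 and 16737 counts per 1000000 (CPM, scaled by the normalized library size) in WT, 14533 and 18984 in TA and 9496 and 11574 in TD. Of these 10 genes 8 fell in TD against WT, beside 14.2% of all genes tested. Markers of fibroblasts and preadipocytes summed to 4235 to 5006 CPM in WT, 4006 to 7070 in TA and 6618 to 9135 in TD. Of the 9 tested 7 rose in TD against WT, beside 15.1% of all genes, and Dlk1 was at 0 in each WT and TD library. Endothelial markers summed to 28.3 to 60.5 CPM in WT, 52.5 to 97.7 in TA and 112 to 142 in TD, and macrophage and leukocyte markers to 274 to 805, 135 to 589 and 624 to 869, with the T cell gene Cd3e at 0 in each WT and TA library. Skeletal muscle markers summed to 6.34 to 15.1 CPM in WT, with Myog and Myod1 at 0 in each WT library, to 22.2 to 84.7 in TA and to 21.4 to 328 in TD. All 11 tested rose in TD against WT, beside 15.1% of all genes, and 5 of the 11 in TD against TA, beside 7.33%. Schwann cell and pericyte markers summed to 37.4 to 45.1, 69.7 to 86.8 and 52.3 to 72.1 CPM. In such bulk cultures fewer cells of a type and less RNA per cell cannot be told apart. The part of these shifts in the results on the 9 genes was not tested, apart from the values given beside them.

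**Figure D1:**
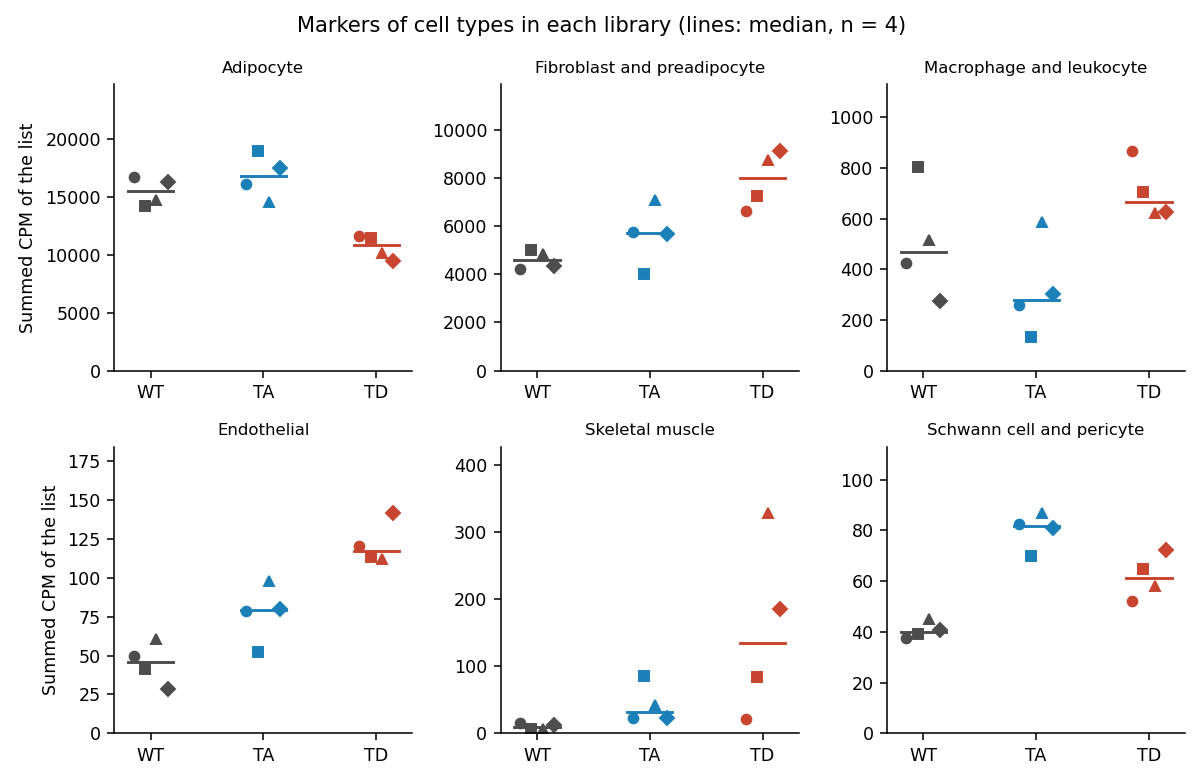
Summed CPM of 6 lists of cell type markers in each of the 12 libraries, with 1 symbol per replicate number, a line at the median of the 4 libraries and a linear axis from 0. The 4 TD libraries lie below the WT libraries for adipocyte markers (at most 11574 against at least 14176 CPM) and above them for fibroblast, endothelial and skeletal muscle markers.

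The 9 genes spanned a wide range of expression. Per length of transcript, the order in WT ran from Mt2 at 13107 ± 956 transcripts per 1000000 (TPM, SD, n = 4) and Mt1 at 8238 ± 384 through Fkbp5 at 428 ± 14.1, Klf9 at 253 ± 24.3, Angptl4 at 231 ± 8.98, Tsc22d3 at 198 ± 21.8 and Zbtb16 at 114 ± 8.82 to Dusp1 at 52.2 ± 8.26 and Sgk1 at 31.8 ± 3.58. Mt2 and Mt1 were the genes of rank 7 and 12 among all genes in WT on this scale. The annotated exonic length of Mt1, 1246 bases, covers its whole span because of a transcript that keeps the introns, against 588 for Mt2, so the per-length order of the pair rests on the annotation. In WT the TPM of Klf9 and Angptl4 overlapped between libraries, and the other neighbours in the order did not. In TA and TD the top 3 and the bottom 3 genes kept their places, while Klf9, Angptl4 and Tsc22d3 overlapped, at 214 ± 16.8, 190 ± 33.3 and 187 ± 11.4 TPM in TA and 237 ± 8.39, 204 ± 18.5 and 219 ± 8.46 in TD. The TPM serve for the order within a genotype. Between genotypes the CPM were compared, since mean TPM of Tsc22d3 and Zbtb16 were higher in TD than in WT while their mean CPM were lower.

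**Figure D2:**
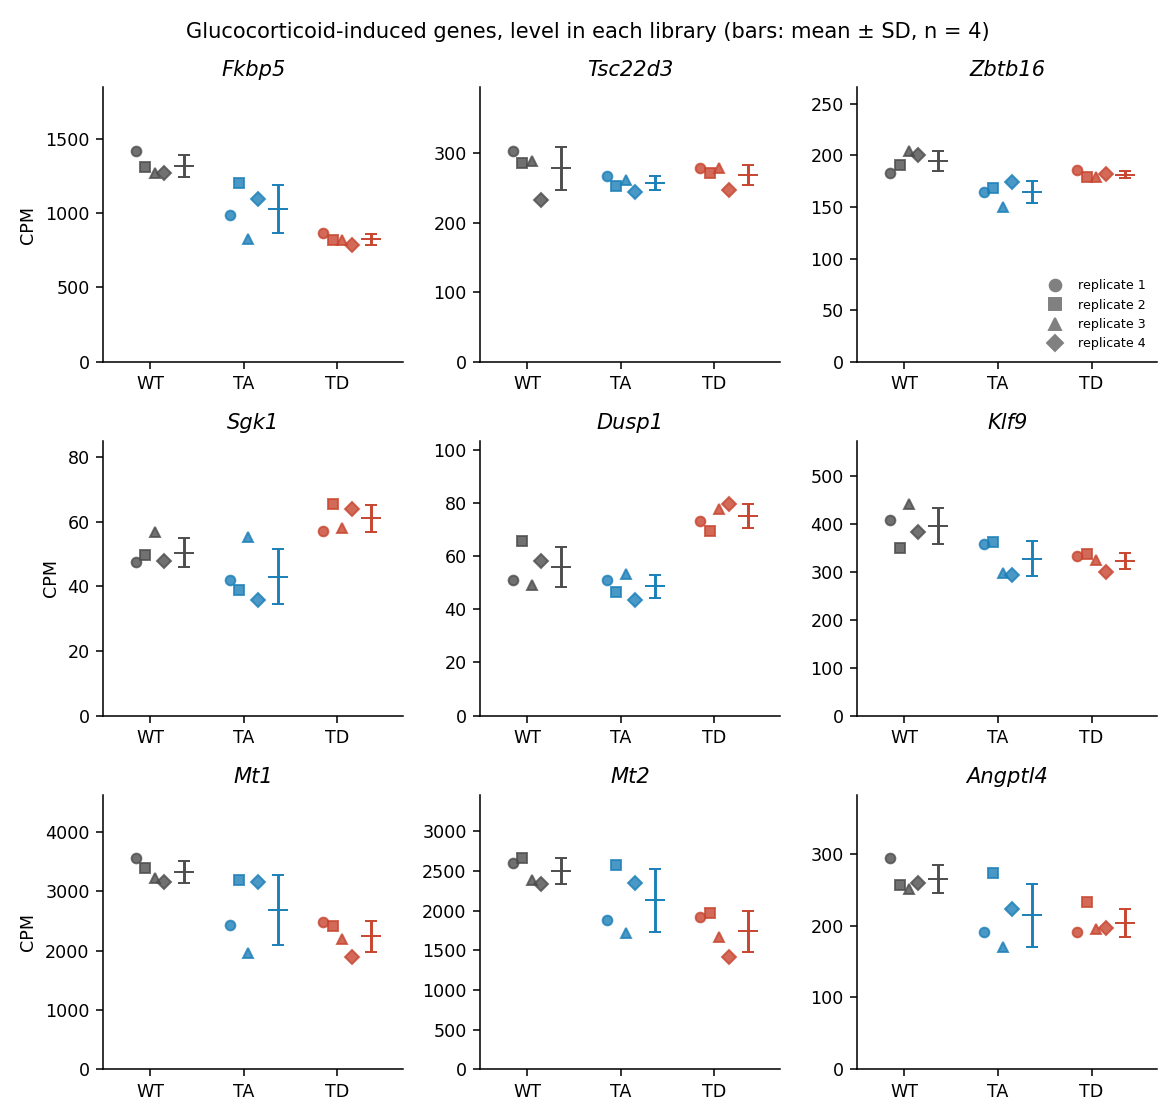
CPM of each of the 9 genes in the 12 libraries, on linear axes from 0, with 1 symbol per replicate number and the mean ± SD of the 4 libraries of a genotype at its right. Fkbp5 steps down from WT (mean 1316) over TA (1028) to TD (823), whereas Dusp1 and Sgk1 are highest in TD.

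Next, the 3 genotypes were compared by edgeR's quasi-likelihood test, with Benjamini-Hochberg adjustment across all 15117 genes. In TD against WT, 5 of the 9 genes fell (Fkbp5, Mt1, Mt2, Angptl4 and Klf9) and 1 rose (Dusp1), beside 14.2% of all genes tested that fell and 15.1% that rose. The median log2 fold change of the 9 was −0.29, against 0.011 over all genes. The libraries of TD and WT did not overlap for 7 of the 9, with Sgk1 added to the 6, beside 32.2% of all genes. In TA against WT, 2 of the 9 fell (Fkbp5 and Zbtb16), beside 4.41% of all genes, and the log2 fold change was below 0 for each of the 9, from −0.36 to −0.12 with a median of −0.24 against −0.0056 over all genes. No gene of the 9 could therefore rise there, beside 6.72% of all genes. At an unadjusted p under 0.05, 6 of the 9 were lower in TA, beside 3804 of the 15117 genes that passed it in either direction. The 2 genes called were also the 2 whose TA and WT libraries did not overlap, beside 13.6% of all genes. In TD against TA, Dusp1 and Sgk1 rose, beside 7.33% of all genes, and Fkbp5 fell, beside 9.37%. The median over the 9 was −0.019 against 0.023, and the libraries did not overlap for 3 genes (Dusp1, Sgk1 and Zbtb16), all higher in TD, beside 19.9%. The comparisons share libraries, so the differences of a gene in them are not independent of each other.

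These counts depend on single libraries to different degrees. In TD against WT the count was 4 (1 higher, 3 lower) without WT replicate 1, without TD replicate 3 or without TD replicate 4, and DESeq2 and limma-voom each gave the same count as edgeR. In TA against WT it went down to 0 without TA replicate 1, to 1 without WT replicate 1, WT replicate 3, WT replicate 4 or TA replicate 3, and up to 4 without TA replicate 2. In TD against TA it was 5 (2 higher, 3 lower) without TA replicate 3 and 2 without TA replicate 1, TA replicate 2, TA replicate 4, TD replicate 2, TD replicate 3 or TD replicate 4. Scaling by library totals in place of TMM gave 2 higher and 4 lower in TD against WT, and 3 higher and 0 lower in TD against TA, where the split over all genes moved from 1108 higher and 1416 lower to 1802 and 982. In TD against WT that split moved from 2276 higher and 2142 lower to 2840 and 1558.

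**Figure D3:**
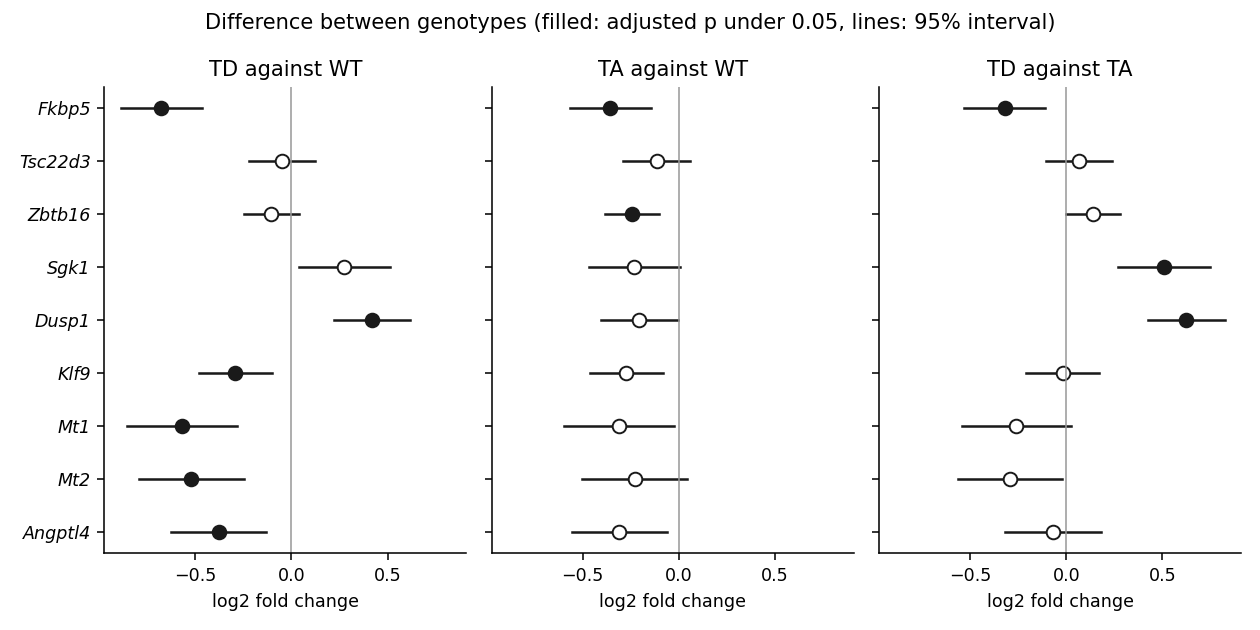
Log2 fold change of the 9 genes in each comparison (horizontal axis) with 95% intervals from the fitted model, filled where the adjusted p was under 0.05. In TA against WT each point lies below 0 (from −0.36 to −0.12), and in TD against TA the points of Sgk1 and Dusp1 lie at 0.51 and 0.62.

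Fkbp5 (ENSMUSG00000024222, chr17:28399094-28517527 on the minus strand, GRCm38) encodes a co-chaperone that binds the receptor complex and lowers its affinity for hormone, so that it closes a feedback loop. Its levels were 1419.6, 1306, 1269 and 1267 CPM in WT replicates 1 to 4, 987, 1202, 826 and 1097 in TA, and 868, 822, 821 and 782 in TD. Each WT library stood above each TA and TD library, and the TD libraries lay close together while TA was spread, with TA replicate 3 inside the TD range. Fkbp5 fell in TD against WT by 0.68 on the log2 scale (SE 0.0994, adjusted p = 0.000215), which is 37.4% less, from 1316 ± 71.7 to 823 ± 35.1 CPM (SD, n = 4). This call was kept in each of the 16 alternative fits, between −0.70 and −0.61. In TA, at 1028 ± 161 CPM, Fkbp5 fell against WT by 0.36 (SE 0.0991, adjusted p = 0.0282). That call was lost without WT replicate 1 (adjusted p = 0.0818), WT replicate 2 (0.05004), TA replicate 1 (0.0763) or TA replicate 3 (0.0598), and with the 8 libraries of the comparison fitted alone (0.0742). TD against TA gave −0.32 (SE 0.0991, adjusted p = 0.0360), with overlapping libraries, and 8 of the 16 alternatives lost it, among them those without TA replicate 1 (adjusted p = 0.0591), TA replicate 2 (0.138), TA replicate 4 (0.0932), TD replicate 2 (0.0760), TD replicate 3 (0.0851) or TD replicate 4 (0.105). Adipocyte markers summed to a median of 15474 CPM in WT, 16789 in TA and 10807 in TD. Within TA the library with the lowest Fkbp5, replicate 3, had the lowest such sum (14533) and the library with the highest, replicate 2, had the highest (18984). Within TD replicate 1 was highest in both (sum 11574) and replicate 4 lowest in both (9496). Within WT replicate 1 was highest in both (16737). WT replicate 4, lowest in Fkbp5, had a sum of 16229, and the lowest WT sum was in replicate 2 (14176). The part of the adipocyte markers in the level of Fkbp5 was not tested.

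Mt1 (ENSMUSG00000031765, chr8:94179082-94180327) and Mt2 (ENSMUSG00000031762, chr8:94172664-94173568) are neighbours on the plus strand of chromosome 8. Their products, the metallothioneins, are small cysteine-rich proteins that hold zinc and copper, and the genes answer to metals through the factor MTF1 as well as to glucocorticoids. Because they were the most abundant of the 9 and moved together, their promoters from RefSeq (GRCm38.p6, chr8:94178839-94179138 for Mt1 and chr8:94172368-94172667 for Mt2, both on the plus strand, from 250 bases before to 50 after the start) are shown 5′ to 3′, with the core of the metal response element in capitals.
Mt1: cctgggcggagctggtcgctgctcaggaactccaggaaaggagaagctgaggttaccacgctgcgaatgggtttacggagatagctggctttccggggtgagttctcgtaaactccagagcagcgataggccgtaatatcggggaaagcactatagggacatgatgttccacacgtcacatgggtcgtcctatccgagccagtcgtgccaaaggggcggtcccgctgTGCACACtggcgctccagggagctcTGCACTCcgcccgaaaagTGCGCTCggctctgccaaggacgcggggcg
Mt2: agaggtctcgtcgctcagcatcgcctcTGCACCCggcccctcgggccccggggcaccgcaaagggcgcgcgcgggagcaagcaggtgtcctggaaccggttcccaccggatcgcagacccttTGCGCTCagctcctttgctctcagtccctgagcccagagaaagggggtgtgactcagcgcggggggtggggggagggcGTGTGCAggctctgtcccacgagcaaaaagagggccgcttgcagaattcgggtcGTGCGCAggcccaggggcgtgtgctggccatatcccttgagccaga
The core was searched as TGCACNC or TGCGCNC on both strands. The Mt1 window held 3 copies and the Mt2 window 4, where 25.7% of the 32851 mouse promoter windows of this length held at least 1, 1.97% at least 3 and 0.517% at least 4. A match of letters is a description and not a measured binding site.

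Mt1 was at 3559, 3386, 3219 and 3148 CPM in WT, 2430.2, 3182, 1967 and 3162 in TA, and 2479.7, 2407, 2194 and 1892 in TD. Mt2 was at 2603, 2662, 2391 and 2332 CPM in WT, 1877, 2573, 1720.0 and 2353 in TA, and 1922, 1966, 1662 and 1409 in TD. For both genes each TD library lay below each WT library, and TA was split, with replicates 2 and 4 inside the WT range and replicates 1 and 3 inside the TD range. Mt1 fell in TD against WT by 0.57 on the log2 scale (SE 0.135, adjusted p = 0.00504) and Mt2 by 0.52 (SE 0.129, adjusted p = 0.00668), and both calls were kept in each of the 16 alternative fits. Mt1 gave −0.31 in TA against WT (adjusted p = 0.159) and −0.26 in TD against TA (adjusted p = 0.203), and Mt2 gave −0.23 (adjusted p = 0.292) and −0.29 (adjusted p = 0.132). None of these 4 passed. Without TA replicate 3 the difference of TD against TA passed for Mt1 (−0.38, adjusted p = 0.0206) and for Mt2 (−0.38, adjusted p = 0.0321), and without the filter on low counts Mt1 passed in TA against WT (adjusted p = 0.0331). The ratio of Mt1 to Mt2 stayed near one value, at 1.33 ± 0.0422 in WT, 1.25 ± 0.0860 in TA and 1.29 ± 0.0512 in TD (CPM over CPM, SD, n = 4). As a share of all reads counted the pair made up 0.574% ± 0.0365 for WT, 0.471% ± 0.0918 for TA and 0.412% ± 0.0557 for TD. Mt2 shares 432 exonic bases with the antisense gene Gm45774, and the strand setting of the counting is not given in the sources used here. That gene had a mean count of 542 against 38950.0 for Mt2. Among 10 tested genes of metal-responsive transcription and zinc transport 4 rose and 1 fell in TD against WT, beside 15.1% and 14.2% of all genes. Their median was 0.15 against 0.011 over all genes. The largest rise was that of the zinc importer Slc39a14, from 351 ± 69.5 to 520.4 ± 58.4 CPM (log2 fold change 0.57, SE 0.119, adjusted p = 0.00227), and the fall was that of Slc30a9, from 135 ± 5.73 to 117 ± 4.51 CPM (−0.21, adjusted p = 0.0248). In TD against TA 2 of the 10 rose, beside 7.33% of all genes, most of all Slc39a10 (0.41, adjusted p = 0.0323).

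Angptl4 (ENSMUSG00000002289, chr17:33773750-33781830 on the minus strand) encodes a secreted protein that inactivates lipoprotein lipase, and it is known as a target of PPARs as well as of the glucocorticoid receptor. It was at 294, 256, 251 and 259.7 CPM in WT, 191, 273, 171 and 223 in TA, and 192, 233, 196 and 196 in TD. Each TD library lay below each WT library, with TD replicate 2 apart from the other TD libraries, and TA replicate 2 was inside the WT range. Angptl4 fell in TD against WT by 0.38 (SE 0.117, adjusted p = 0.0231), from 265 ± 19.5 to 204 ± 19.2 CPM. The call was lost without WT replicate 1 (adjusted p = 0.0825), TD replicate 1 (0.0575), TD replicate 3 (0.0637) or TD replicate 4 (0.0635). In TA, at 214 ± 44.5 CPM, the difference from WT was −0.31 (SE 0.117, adjusted p = 0.105), which passed without TA replicate 2 (−0.45, adjusted p = 0.00761) and without the filter on low counts (adjusted p = 0.00636). TD against TA gave −0.070 (95% interval −0.32 to 0.18).

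Other PPAR targets that answer to fatty acids were looked at beside Angptl4. Of the 15 tested 12 fell and 2 rose in TD against WT, with a median of −0.60, beside 14.2% and 15.1% of all genes. In TD against TA 11 fell, with a median of −0.61, beside 9.37%. In TA against WT 4 rose and 1 fell, with a median of 0.15, beside 6.72% and 4.41%. The log2 fold change of Angptl4 was −0.31 there. Plin5, a protein of the lipid droplet surface, went from 29.2 ± 5.91 CPM in WT and 32.5 ± 9.55 in TA to 7.59 ± 1.74 in TD (TD against WT −1.94, adjusted p = 5.67e-05, and TD against TA −2.09, adjusted p = 1.09e-05). Acadvl, an enzyme of fatty acid oxidation, fell in TA against WT by 0.29 (adjusted p = 0.0438). It fell further in TD, by 0.74 against WT (adjusted p = 8.18e-05) and by 0.45 against TA (adjusted p = 0.00324). Of 10 adipocyte markers 8 fell in TD against WT, beside 14.2% of all genes. In TD against TA 8 of the 10 fell and 1 (Lep) rose, beside 9.37% and 7.33%. Cidec belongs to both lists, so the lists are not separate. The part of the adipocyte markers in the changes of the PPAR targets was not tested.

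Of lipoprotein lipase and its regulators 12 were tested, of which 4 rose and 5 fell in TD against WT (median −0.023), beside 15.1% and 14.2% of all genes, in TA against WT 2 rose and 1 fell (median 0.050), beside 6.72% and 4.41%, and in TD against TA 3 fell (median −0.034), beside 9.37%. Gpihbp1, which carries the lipase across endothelium, rose in TD against WT from 1.72 ± 0.683 to 4.54 ± 0.613 CPM (1.39, adjusted p = 0.00263), beside endothelial markers of which 7 of 8 rose. Apoc3, an inhibitor of the lipase, fell from 23.9 ± 4.56 to 6.28 ± 1.16 CPM (−1.92, adjusted p = 5.67e-05). Angptl8, a partner of the Angptl inhibitors, rose in TA against WT from 6.79 ± 0.801 to 10.4 ± 1.48 CPM (0.61, adjusted p = 0.00618). In TD against WT Angptl8 rose as well, to 10.6 ± 0.622 CPM (0.64, adjusted p = 0.00196). Pcsk6, a protease, fell from 36.5 ± 5.91 CPM in WT to 16.4 ± 4.15 in TA (−1.16, adjusted p = 0.000165). It also fell in TD against WT, to 15.3 ± 1.79 CPM (−1.25, adjusted p = 0.000102). Apoc1 fell in TD against TA (−1.42, adjusted p = 2.73e-05). Angptl4 is also known to answer to hypoxia. Of 14 hypoxia-induced genes, 3 rose and 3 fell in TD against WT (median −0.095), beside 15.1% and 14.2% of all genes. In TA against WT 1 rose and 2 fell (median −0.040), beside 6.72% and 4.41%. In TD against TA 2 rose and 2 fell (median −0.062), beside 7.33% and 9.37%.

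Klf9 and Zbtb16 encode zinc finger transcription factors, and Tsc22d3 encodes GILZ, which holds back inflammatory transcription factors. Klf9 (ENSMUSG00000033863, chr19:23141226-23168134 on the plus strand) was at 407, 350.1, 440.0 and 383 CPM in WT, 357, 361, 297 and 294 in TA, and 331, 337, 323 and 299 in TD. Each TD library lay below each WT library, and WT and TA overlapped through WT replicate 2. Klf9 fell in TD against WT by 0.29 (SE 0.0901, adjusted p = 0.0228), from 395 ± 38.0 to 323 ± 16.7 CPM. The call was lost without WT replicate 1 (adjusted p = 0.0589), WT replicate 3 (0.0733), TD replicate 3 (0.0534) or TD replicate 4 (0.0778), and with library totals in place of TMM (0.0547). In TA, at 327 ± 36.8 CPM, the difference from WT was −0.27 (SE 0.0901, adjusted p = 0.0633), which passed by DESeq2 (adjusted p = 0.0263), with library totals (0.0368), without the filter (0.0255), without WT replicate 2 (0.0355) and without TA replicate 2 (0.0289). TD against TA gave −0.019 (95% interval −0.21 to 0.17).

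Zbtb16 (ENSMUSG00000066687, chr9:48654297-48836222 on the minus strand) was at 182, 191, 204 and 201 CPM in WT, 164, 169, 150.0 and 174 in TA, and 186, 179, 179 and 181 in TD. The TA libraries were the lowest 4 of the 12, and TD overlapped with WT. Zbtb16 fell in TA against WT by 0.24 (SE 0.0666, adjusted p = 0.0254), from 195 ± 9.88 to 164 ± 10.3 CPM. That call was lost without WT replicate 3 (adjusted p = 0.0660), WT replicate 4 (0.0679), TA replicate 1 (0.0551) or TA replicate 3 (0.0713), and with the 8 libraries fitted alone (0.0810). In TD, at 181 ± 3.19 CPM, it differed from WT by −0.10 (adjusted p = 0.263) and from TA by 0.14 (adjusted p = 0.160), the latter passing with library totals (0.22, adjusted p = 0.0272).

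Tsc22d3 (ENSMUSG00000031431, chrX:140539528-140600659 on the minus strand) did not pass in any comparison, in edgeR or in the 16 alternatives. Its CPM were 304, 287, 289 and 233 in WT, 268, 253, 262 and 245 in TA, and 279, 271, 278 and 248 in TD, with overlap between each pair of genotypes and WT replicate 4 as the lowest library. TD against WT gave −0.049 (95% interval −0.22 to 0.12), TA against WT −0.12 (−0.29 to 0.057) and TD against TA 0.067 (−0.11 to 0.24), and the first of these changed sign with library totals. The ratio of Fkbp5 to Tsc22d3 in CPM was 4.76 ± 0.459 in WT, 4.02 ± 0.734 in TA and 3.06 ± 0.0915 in TD.

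Sgk1 and Dusp1 were the 2 genes of the 9 with a mean level in TD above WT. Sgk1 (ENSMUSG00000019970, chr10:21882184-21999903 on the plus strand) encodes a kinase that acts downstream of insulin and corticosteroids on ion channels and transporters. Dusp1 (ENSMUSG00000024190, chr17:26505590-26562128 on the minus strand) encodes a phosphatase that switches off the p38 and JNK kinases, and it is known both as a glucocorticoid target and as an early gene that answers to growth factors, stress and cyclic AMP. A stretch of promoter is shown for each from RefSeq (GRCm38.p6), because these are the windows in which a whole glucocorticoid or cyclic AMP response element was found, among 14 windows searched. For Sgk1 (chr10:21993651-21993765, plus strand) the capitals mark the glucocorticoid response element, and for Dusp1 (chr17:26508558-26508665, minus strand) the cyclic AMP response element.
Sgk1: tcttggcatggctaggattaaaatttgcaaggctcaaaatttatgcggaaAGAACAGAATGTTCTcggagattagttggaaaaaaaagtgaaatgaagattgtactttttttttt
Dusp1: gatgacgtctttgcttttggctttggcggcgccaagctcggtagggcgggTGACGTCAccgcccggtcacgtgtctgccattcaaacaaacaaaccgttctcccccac
The glucocorticoid response element was searched as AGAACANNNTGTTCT, which reads alike on both strands, and 3 of the 32851 windows held it (0.00913%), among them 1 of the 6 of Sgk1, 189 bases before that start. The cyclic AMP response element TGACGTCA stood 143 bases before the Dusp1 start and was found in 1.79% of all windows. RefSeq windows were matched for 7 of the 9 genes, and Zbtb16 and Angptl4 had no entry. The half-site AGAACA, which the whole element contains, was found in 19.0% of all windows. The windows are short and elements farther away were not searched.

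Sgk1 was at 47.4, 49.8, 56.9 and 47.8 CPM in WT, 42.1, 38.7, 55.2 and 35.8 in TA, and 57.0, 65.4, 58.2 and 64.0 in TD. The TD libraries stood above the others, by a narrow margin over WT replicate 3, and TA replicate 3 stood apart from the lower TA libraries. Sgk1 rose in TD against TA by 0.51 (SE 0.112, adjusted p = 0.00612), from 43.0 ± 8.55 to 61.1 ± 4.16 CPM, and this call was kept in each of the 16 alternative fits. Against WT, at 50.5 ± 4.40 CPM, TD gave 0.28 (SE 0.111, adjusted p = 0.0727), which passed without WT replicate 3 (0.34, adjusted p = 0.0453), with library totals (0.0409), without the filter (0.0236) and with 8 libraries fitted alone (0.0131). TA against WT gave −0.23 (adjusted p = 0.212), which passed without TA replicate 3 (−0.38, adjusted p = 0.0134).

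Dusp1 was at 51.0, 65.6, 49.0 and 58.1 CPM in WT, 50.8, 46.6, 53.3 and 43.5 in TA, and 73.1, 69.3, 77.5 and 79.4 in TD. Each TD library stood above the 8 others, while WT and TA overlapped. Dusp1 rose in TD against WT by 0.42 (SE 0.0933, adjusted p = 0.00334), from 55.9 ± 7.54 to 74.8 ± 4.52 CPM, and against TA, at 48.5 ± 4.33 CPM, by 0.62 (SE 0.0941, adjusted p = 0.000368). Both calls were kept in each of the 16 alternative fits. TA against WT gave −0.20 (95% interval −0.40 to −0.0050, adjusted p = 0.186). Dusp1 shares 11 exonic bases with Ergic1 on the opposite strand, whose mean count was 2927 against 1092 for Dusp1. The ratio of Fkbp5 to Dusp1 was 23.9 ± 3.64 in WT, 21.5 ± 4.91 in TA and 11.04 ± 0.994 in TD, and that of Fkbp5 to Sgk1 was 26.2 ± 3.12, 25.01 ± 7.55 and 13.5 ± 1.40.

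Since Dusp1 is also an immediate-early gene, 17 tested genes of that class were set beside it. In TD against TA 11 of the 17 rose, beside 7.33% of all genes, with a median log2 fold change of 0.54 against 0.023 over all genes, and Dusp1 itself stood at 0.62. Cell type markers rose there too, 3 of 8 of macrophages and leukocytes (median 1.141) and 4 of 9 of fibroblasts and preadipocytes (median 0.19). So did 3 of 8 of endothelium (median 0.65) and 5 of 11 of skeletal muscle (median 1.93). The part of these markers was not tested. In TA against WT 6 of the 17 immediate-early genes fell and 1 rose (median −0.35), beside 4.41% and 6.72% of all genes. In TD against WT 4 of them rose and 3 fell (median 0.15), beside 15.1% and 14.2%. Fos, a subunit of AP-1, fell in TA against WT from 30.2 ± 5.73 to 8.39 ± 1.13 CPM (−1.84, SE 0.141, adjusted p = 4.21e-07) and in TD against WT to 20.1 ± 2.15 CPM (−0.58, adjusted p = 0.00386), so that it was lowest in TA. Egr1, a zinc finger factor, was at 46.0 ± 14.8 CPM in WT, 16.5 ± 3.55 in TA and 47.1 ± 3.25 in TD, and it rose in TD against TA by 1.51 (SE 0.184, adjusted p = 6.17e-05). Ier3 rose from 18.2 ± 2.43 CPM in WT to 24.5 ± 1.09 in TA (0.43, adjusted p = 0.00862) and 31.9 ± 2.26 in TD (0.81, adjusted p = 8.02e-05). Of the 7 tested other MAP kinase phosphatases 1 rose in TD against TA, beside 7.33% of all genes. It was Dusp6, which acts on ERK, from 11.95 ± 1.60 to 17.3 ± 2.25 CPM (0.53, SE 0.117, adjusted p = 0.00600). None of the 7 was called in TD against WT or in TA against WT.

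**Figure D4:**
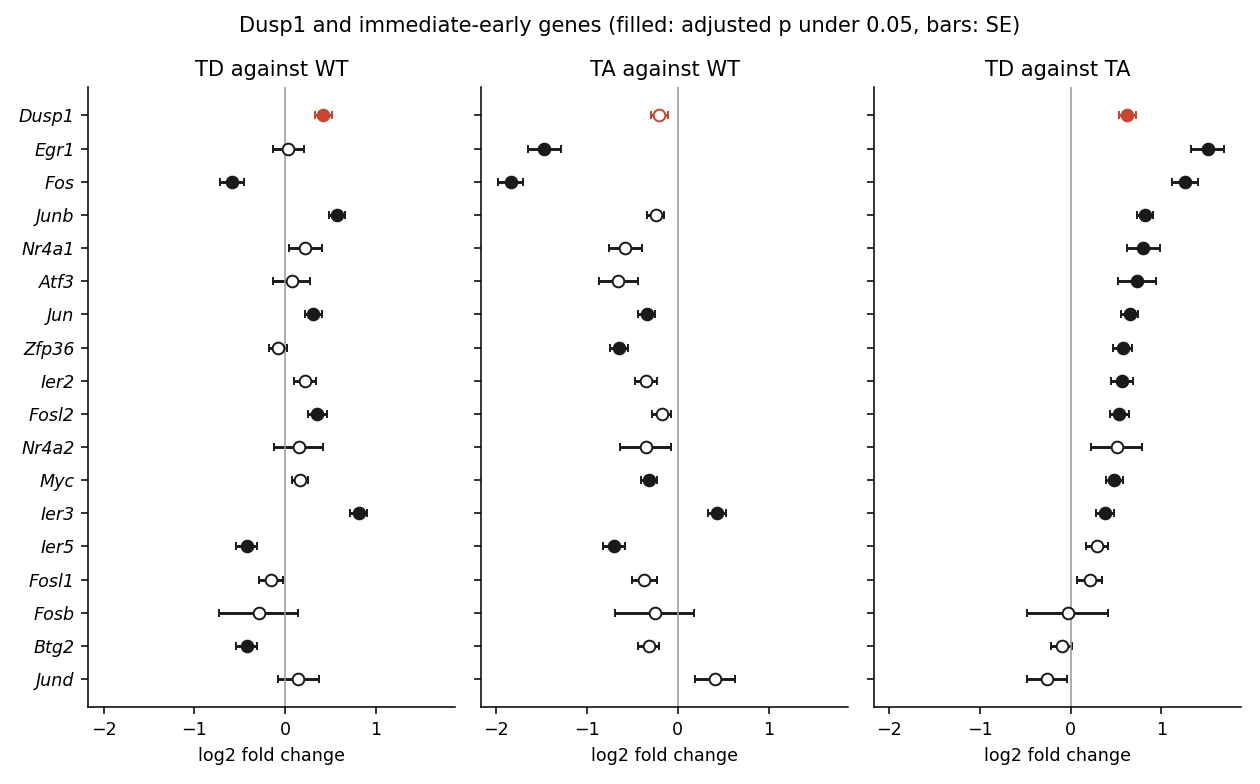
Log2 fold change of Dusp1 (top row) and of 17 immediate-early genes in each comparison, with the SE as bars and filled points where the adjusted p was under 0.05. In TD against TA 11 of the 17 are filled, all above 0, where Dusp1 is at 0.62, and in TA against WT Fos (−1.84) and Egr1 (−1.47) lie farthest below 0.

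Subsequently, the pathway ahead of the 9 genes was examined. The receptor gene Nr3c1 was at 143 ± 11.8 CPM in WT, 146 ± 19.5 in TA and 147 ± 3.90 in TD, with log2 fold changes of 0.039 (TD against WT, adjusted p = 0.781), 0.024 (TA against WT, adjusted p = 0.906) and 0.015 (TD against TA, adjusted p = 0.929). Of the 11 genes of the receptor and its chaperones 3 fell in TD against WT (median −0.25), beside 14.2% of all genes. In TD against TA 1 fell (median −0.090), beside 9.37%. Hspa8, the constitutive Hsp70, fell in TD against WT from 1111 ± 379 to 796 ± 40.2 CPM (−0.48, SE 0.164, adjusted p = 0.0369). Bag1, an exchange factor of Hsp70, fell from 149 ± 17.7 to 115 ± 5.51 CPM (−0.38, SE 0.0905, adjusted p = 0.00558) and against TA by 0.31 (adjusted p = 0.0270). Hsd11b1, the enzyme that turns inactive into active glucocorticoid inside fat cells, was at 115 ± 9.46 CPM in WT, 79.6 ± 18.0 in TA and 143 ± 4.11 in TD. It fell in TA against WT by 0.53 (SE 0.120, adjusted p = 0.00880) and rose in TD against TA by 0.85 (SE 0.120, adjusted p = 0.000228), while TD against WT gave 0.32 (adjusted p = 0.0528). Hsd11b2, which runs the inactivating step, was at a low level but rose from 0.410 ± 0.144 CPM in WT to 1.46 ± 0.242 in TA (1.81, adjusted p = 0.00140) and 1.51 ± 0.239 in TD (1.86, adjusted p = 0.000546). Of the 6 tested genes of steroid activation 2 rose in TD against WT, beside 15.1% of all genes. In TA against WT 1 rose and 2 fell, beside 6.72% and 4.41%, and 2 rose in TD against TA, beside 7.33%. Among 12 coregulators of the receptor 2 rose in TD against WT, beside 15.1% of all genes, and 3 in TD against TA, beside 7.33%. Ncoa3, a coactivator, was at 25.7 ± 3.31 CPM in WT, 25.7 ± 3.65 in TA and 32.7 ± 2.15 in TD (TD against WT 0.34, adjusted p = 0.0273, and TD against TA 0.34, adjusted p = 0.0436).

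Among other genes known to be induced by glucocorticoids 28 were tested, of which 7 rose and 8 fell in TD against WT (median −0.069), beside 15.1% and 14.2% of all genes, in TA against WT 2 rose and 2 fell (median −0.012), beside 6.72% and 4.41%, and in TD against TA 4 rose and 5 fell (median 0.11), beside 7.33% and 9.37%. The clock gene Per1, a direct target of the receptor, was at 105 ± 4.72 CPM in WT, 98.2 ± 8.69 in TA and 99.2 ± 4.42 in TD and did not pass (TD against WT −0.079, adjusted p = 0.445, and TA against WT −0.094, adjusted p = 0.467). Cd163, a scavenger receptor of macrophages, rose in TD from 4.77 ± 2.29 CPM in WT to 26.1 ± 4.74 (2.44, SE 0.305, adjusted p = 9.24e-05) and against TA, at 9.23 ± 3.76 CPM (1.49, adjusted p = 0.00260). Macrophage and leukocyte markers summed to 274 to 805 CPM in WT and 624 to 869 in TD, where 1 of the 8 tested rose (median 0.36), and to 135 to 589 in TA, against which 3 of the 8 rose in TD (median 1.141). Their part in the rise of Cd163 was not tested. Il1r2, a decoy receptor for interleukin-1, rose in TA against WT from 11.04 ± 1.52 to 25.3 ± 7.23 CPM (1.20, adjusted p = 0.00215). It also rose in TD against WT, to 28.3 ± 8.84 CPM (1.35, adjusted p = 0.000428). Pck1, an enzyme of glyceroneogenesis in fat, fell from 3.77 ± 2.08 CPM in WT to 0.829 ± 0.466 in TA (−2.16, adjusted p = 0.00679) and 0.694 ± 0.401 in TD (−2.42, SE 0.481, adjusted p = 0.00154). Glul, which makes glutamine, was at 3309 ± 243 CPM in WT, 4075 ± 514 in TA and 2652 ± 101 in TD, and it fell in TD against TA by 0.62 (SE 0.0976, adjusted p = 0.000528).

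Of 20 tested inflammatory genes that glucocorticoids are known to repress, 7 rose in TD against WT (median 0.31), beside 15.1% of all genes. In TD against TA 8 rose (median 0.54), beside 7.33%, and in TA against WT 1 rose (median −0.11), beside 6.72%. Il6 rose in TD against WT from 0.817 ± 0.268 to 2.30 ± 0.529 CPM (1.48, SE 0.317, adjusted p = 0.00258). Vcam1, an adhesion molecule, rose in TA against WT from 29.8 ± 1.71 to 48.8 ± 8.93 CPM (0.71, SE 0.107, adjusted p = 0.000358). It also rose in TD against WT, to 54.1 ± 3.59 CPM (0.86, adjusted p = 8.93e-05). Mmp13, a collagenase, rose in TD against TA from 1.00 ± 0.376 to 3.20 ± 0.426 CPM (1.67, SE 0.281, adjusted p = 0.000939). Markers of other cells were read in the same comparisons. In TD against WT 7 of 9 fibroblast and preadipocyte, 7 of 8 endothelial and all 11 skeletal muscle markers rose, beside 15.1% of all genes. So did 4 of 7 Schwann cell and pericyte and 1 of 8 macrophage and leukocyte markers. In TD against TA these 5 lists gave 4 of 9, 3 of 8, 5 of 11, 0 of 7 and 3 of 8, beside 7.33%. In TA against WT they gave 5 of 9, 4 of 8, 7 of 11, 4 of 7 and 0 of 8, beside 6.72%. In TD 1 Schwann cell and pericyte marker fell, against WT and against TA. The part of these markers in the rises of the inflammatory genes was not tested. Thyroid hormone stayed in the medium to the end. Of the 6 tested genes that respond to it, 1 rose and 2 fell in TD against WT, beside 15.1% and 14.2% of all genes. In TA against WT 3 rose and 1 fell, beside 6.72% and 4.41%, and in TD against TA 3 fell, beside 9.37%. Thrsp, a gene of lipogenesis, rose in TA against WT from 866 ± 85.0 to 1618 ± 91.5 CPM (0.90, SE 0.0851, adjusted p = 3.77e-06).

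Paralogs of Fkbp5, Tsc22d3, Sgk1, Zbtb16, Klf9 and Angptl4 were read as well. Of 15 tested, 6 rose and 3 fell in TD against WT (median 0.21), beside 15.1% and 14.2% of all genes. In TA against WT 4 rose and 1 fell (median 0.021), beside 6.72% and 4.41%. In TD against TA 1 rose and 2 fell (median 0.11), beside 7.33% and 9.37%. Angptl6 fell in TD from 7.65 ± 0.629 CPM in WT to 2.72 ± 0.510 (−1.49, SE 0.222, adjusted p = 0.000232), and Angptl1 rose from 1.19 ± 0.556 to 3.02 ± 0.783 (1.34, SE 0.350, adjusted p = 0.00897). Tsc22d2 fell in TA against WT by 0.33 (adjusted p = 0.0480), and Zbtb7a rose in TD against TA by 0.28 (adjusted p = 0.0359).

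The spread within a genotype differed from gene to gene. The coefficient of variation over 4 libraries in TA was 22.1% for Mt1, 20.8% for Angptl4, 19.9% for Sgk1, 18.7% for Mt2, 15.6% for Fkbp5, 11.3% for Klf9 and 6.27% for Zbtb16, against 5.51%, 7.35%, 8.72%, 6.41%, 5.45%, 9.62% and 5.08% in WT. For Dusp1 and Tsc22d3 it was lower in TA (8.93% and 3.93%) than in WT (13.5% and 11.1%). TA replicate 3 held the lowest TA value of Fkbp5, Mt1, Mt2, Angptl4 and Zbtb16 and the highest of Sgk1 and Dusp1. The same library had the highest TA sums of fibroblast (7070 CPM), endothelial (97.7) and macrophage and leukocyte (589) markers and the lowest TA sum of adipocyte markers (14533). TA replicate 2, with the highest TA sum of adipocyte markers at 18984 CPM, held the highest TA value of Fkbp5, Mt1, Mt2, Angptl4 and Klf9. In TD, replicate 4 had the lowest value of Fkbp5, Tsc22d3, Klf9, Mt1 and Mt2 and the lowest sum of adipocyte markers, 9496 CPM. The part of the marker levels in this spread was not tested.

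**Figure D5:**
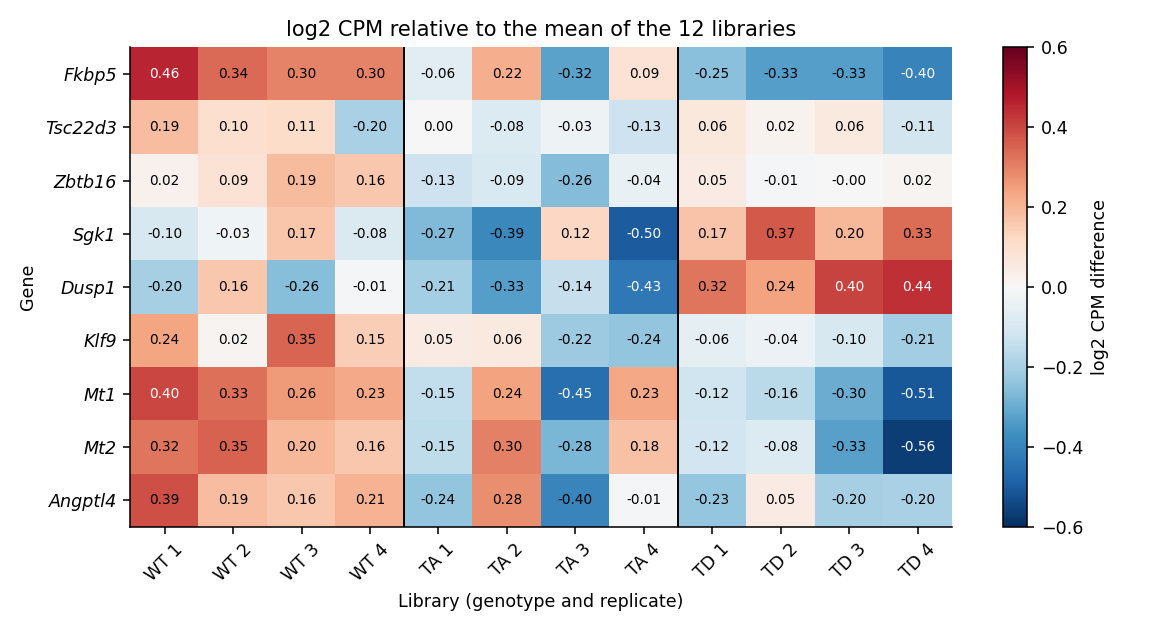
Log2 CPM of the 9 genes (rows) in each library (columns) relative to the mean of the 12 libraries, with the value in each cell. Fkbp5, Mt1, Mt2 and Angptl4 are above their mean in the 4 WT libraries and mixed in TA, where replicate 3 is at −0.32, −0.45, −0.28 and −0.40, and Sgk1 and Dusp1 are above it in the 4 TD libraries.

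To see which other genes followed a like course, the centred log2 CPM of the 9 genes over the 12 libraries was compared with that of other genes whose SD was at least 0.8 times as large. The measure was the root mean square difference, which is 0 for 2 identical courses. For Fkbp5, whose SD was 0.317, the nearest genes were Gabarapl1 (0.0703) and Zbtb7b (0.0705). For Mt1 they were Slc1a5 (0.0669) and Mt2 (0.0724), and for Mt2 they were Mt1 and Hcfc1r1 (0.0860). Dusp1 lay nearest to Rin1 (0.130) and Dusp6 (0.132), and Sgk1 to Lox (0.0818) and Rap2a (0.0937). The nearest to Angptl4 were Tmem53 (0.0939) and Dus1l (0.0967), to Klf9 Sowahc (0.0722) and Tmem62 (0.0747) and to Zbtb16 Dot1l (0.0543) and Stom (0.0546). Each distance is to be read beside the SD of its gene. That SD was 0.318 for Mt1, 0.296 for Mt2, 0.302 for Dusp1, 0.277 for Sgk1, 0.248 for Angptl4, 0.182 for Klf9 and 0.122 for Zbtb16. Mt1 and Mt2 were the one pair of the 9 in which each gene was among the 2 nearest of the other. These distances describe the 12 libraries, which share the genotype differences.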

How the data were processed

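RNA-seq of 12 libraries was used, 4 each of WT, TA and TD, grouped by the genotype in the labels. The authors sequenced on a NovaSeq instrument. According to the submitters' processing notes bcl2fastq 2.17.1.14, cutadapt 1.9.1, HISAT2 2.0.1 and HTSeq 0.6.1 were used on GRCm38, and the strand setting is not given in the sources used here. The deposited values are raw counts of reads per gene, without normalization, and the 12 libraries were equal in the 2 forms in which they were deposited. Positions and lengths came from GENCODE M21, which held 55480 of 55573 identifiers (99.8%).

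The tests were run in R 4.3.3 with DESeq2 1.42.0, limma 3.58.1 and, for the results reported, edgeR 4.0.16. Its filterByExpr (at least 10 counts, total at least 15) removed genes with low counts, and libraries were scaled by TMM (factors 0.957 to 1.04). A two-sided quasi-likelihood test was fitted to all 12 libraries, and an adjusted p under 0.05 counted as a call. The log2 CPM used a prior count of 2. CPM and TPM were computed here from the counts. Replicates differed by more than sampling noise (chi-square per degree of freedom 4.88 to 37.5 over 18 pairs). The common biological coefficient of variation was 12.9%. The steps were tested on simulated data.

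The 9 genes and the 19 gene lists were chosen with earlier results of these data known, so the lists give no independent support. Named were the 9 genes, Nr3c1, Hsd11b1 and Per1, the member of each list with the largest rise and fall among those called in a comparison, and the 2 genes nearest to each of the 9. A few of the results that this rule names are not reported here. Listed genes below the count filter were left out of the counts, and Ca9 was not analysed here. The alternatives were DESeq2, limma-voom, other scaling factors, other filters, the 8 libraries of a comparison alone, the replicate number as a term, and each library left out.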

Additional observations from a re-analysis of the deposited data

Results flagged for a closer look

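The level of Angptl4 in TD replicate 2, 233 CPM, stood apart from the other 3 TD libraries, of which the nearest was at 196 CPM and the farthest at 192. The gap was 0.887 of the whole range of the group, above Dixon's critical value of 0.829 for 4 libraries. It was the one value so marked among 27 groups of 4 libraries (9 genes in 3 genotypes), where chance marks about 1 group in 20. This library still lay below each WT library.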

How the results depend on the processing

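Each of the 27 differences (9 genes in 3 comparisons) was recomputed in 16 alternative fits, and of these 432 values 382 kept direction and call, 27 lost a call, 16 gained one and 7 changed sign. The number of the 9 genes called in TA against WT, 2, became 5 without the filter on low counts and 0 with the 8 libraries fitted alone. Over all genes the 1683 calls there became 2314 and 1231. With each library left out the number of the 9 genes ranged from 0 to 4 in TA against WT. That of TD against WT (6) ranged from 4 to 6 and that of TD against TA (3) from 2 to 5. The sign changed with library totals for Tsc22d3 in TD against WT (0.019) and, in TD against TA, for Klf9 (0.062) and Angptl4 (0.011). In TD against TA it also changed for Klf9 without TA replicate 1 (0.031), TA replicate 2 (0.037) or TD replicate 4 (0.016), within a range of −0.064 to 0.037 over the left-out libraries, and for Angptl4 without TA replicate 2 (0.072), within −0.17 to 0.072. None of these 7 differences passed the test. Library totals shifted the median of all genes by 0.068 (TD against WT), −0.0091 (TA against WT) and 0.077 (TD against TA). Over all genes, the 2524 calls in TD against TA became 1422 without TA replicate 2, 1586 without TD replicate 3 and 1432 without TD replicate 4. Counts of the lists moved by over 1.5 times in 174 of 912 cases. Same-numbered libraries did not deviate together (correlations of −0.24 to 0.20, above 0.1 in 2 of 12 pairs). With the replicate block the number of the 9 genes called was 6 for TD and 2 for TA, each against WT, and 3 between TD and TA, and the block changed no call of the 9 genes. The causes of these changes were not tested. Depth limits the low genes most, such as Hsd11b2 and Il6.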

Other observations

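From the lists of hypoxia-induced and thyroid hormone-responsive genes, some of the members with the largest changes among those called were as follows. In TD against WT Ankrd37 rose from 13.1 ± 4.79 to 21.6 ± 2.18 CPM (SD, n = 4, log2 fold change 0.72) and Hk2, which starts glycolysis, fell from 345 ± 30.5 to 214 ± 15.1 CPM (−0.69). Pfkfb3, a regulator of glycolysis, was at 509 ± 59.4 CPM in WT, 822 ± 90.9 in TA and 469 ± 30.2 in TD, so that it rose in TA against WT (0.69) and fell in TD against TA (−0.81). Adm, a vasodilator peptide, took the opposite course, at 184 ± 9.15, 136 ± 18.3 and 199 ± 15.2 CPM, with a fall in TA against WT (−0.43). Dio2, which activates thyroid hormone, fell from 5.67 ± 1.13 CPM in WT to 2.02 ± 1.03 in TA (−1.49) and 2.598 ± 0.711 in TD (−1.12).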
